A study of Mus musculus with 21 samples.

Results

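The genes of glycolysis and of the transcriptional response to low oxygen were followed in 3T3-L1 adipocytes, a mouse fibroblast line that turns into fat cells in culture, on 21 Affymetrix mouse arrays. The list was chosen by gene symbol from knowledge of these pathways and with earlier results of these data known, and each gene was read through the probe set with the highest mean over the 21 arrays. It holds 35 genes of the 18194 that the arrays name, namely 17 glycolytic enzymes, 16 other hypoxia targets and the 2 oxygen-regulated alpha subunits of hypoxia-inducible factor (HIF), Hif1a and Epas1. Of these 35, 32 had a probe set of 1 gene and 29 passed the level filter, which asked for a log2 value over 5.34, the overall median, on at least 3 arrays. The tested genes were 14 enzymes, 13 other targets and both alpha subunits.

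The cells had differentiated for 14 days, and the 6 treated groups received either Dex (dexamethasone at 20 nM, a drug that acts on the glucocorticoid receptor) or TNF (tumor necrosis factor-alpha, a cytokine of inflammation whose dose the labels do not give). Treatment began 2 h, 24 h or 6 d ahead of harvest, and the control was untreated, labelled 0 h. No untreated group is labelled 2 h, 24 h or 6 d. By these labels a change against control, also one shared by both agents, cannot be told apart from time in culture. Each of the 7 groups has 3 arrays labelled as biological replicates of this 1 cell line, and the labels give neither the oxygen level, the glucose level nor a vehicle. The stated question is how transcripts shift at these 3 stages as insulin resistance develops under either agent.

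Glycolysis splits glucose into pyruvate, and lactate dehydrogenase turns pyruvate into lactate when respiration is limited. In normal oxygen the prolyl hydroxylases encoded by Egln1 and Egln3 mark the HIF alpha subunits for destruction, whereas in low oxygen the subunits persist, pair with a beta subunit and switch on genes that hold the short sequence ACGTG or GCGTG. These include most glycolytic enzymes and also Egln3 itself, so that the transcripts below are widely used as a readout of HIF activity. Both alpha subunits are regulated mainly as proteins, which arrays do not measure.

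Promoter windows of 300 bases (250 before to 50 after the transcript start, from RefSeq on GRCm38.p6) were matched by symbol for 32 of the 35 members, in 52 windows. The motifs searched were ACGTG and GCGTG on both strands, the 2 forms of the HIF core, and CACGTG, the E-box of other factors, which contains ACGTG on both strands and was counted apart. At least 1 core stood in a window of 29 of the 32 members, against 46.7% of 27025 genes, and in 41 of the 52 member windows, against 43.8% of 32851 windows. Member windows were richer in G and C (median 62.7%, against 52.7% of all windows), and the members were picked as known hypoxia genes, so these shares are a description. CACGTG occurred in windows of 6 members, against 8.09% of genes. The windows of 5 members whose transcripts changed are printed 5′ to 3′ on the strand of the gene, choosing where a gene has several the window with the most cores, with every core match in capitals. Egln3 and Ankrd37 fell at 6 d of both agents, Fam162a and Pgk1 stand for the mitochondrial targets and the enzymes, and Adm is the target that rose.
Egln3, chr12:54203825-54204124, minus strand: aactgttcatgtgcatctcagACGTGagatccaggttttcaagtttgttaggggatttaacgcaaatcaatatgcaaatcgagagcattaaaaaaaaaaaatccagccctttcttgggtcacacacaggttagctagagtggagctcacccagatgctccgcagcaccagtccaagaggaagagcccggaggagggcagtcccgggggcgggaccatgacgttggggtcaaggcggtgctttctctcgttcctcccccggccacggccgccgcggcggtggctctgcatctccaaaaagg
Fam162a, chr16:36071512-36071811, minus strand: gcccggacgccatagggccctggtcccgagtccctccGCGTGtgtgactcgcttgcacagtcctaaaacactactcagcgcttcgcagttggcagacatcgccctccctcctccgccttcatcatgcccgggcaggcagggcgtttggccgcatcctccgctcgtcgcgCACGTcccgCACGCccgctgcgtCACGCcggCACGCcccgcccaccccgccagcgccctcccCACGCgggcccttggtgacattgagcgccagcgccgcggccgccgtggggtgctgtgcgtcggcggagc
Ankrd37, chr8:45999801-46000100, minus strand: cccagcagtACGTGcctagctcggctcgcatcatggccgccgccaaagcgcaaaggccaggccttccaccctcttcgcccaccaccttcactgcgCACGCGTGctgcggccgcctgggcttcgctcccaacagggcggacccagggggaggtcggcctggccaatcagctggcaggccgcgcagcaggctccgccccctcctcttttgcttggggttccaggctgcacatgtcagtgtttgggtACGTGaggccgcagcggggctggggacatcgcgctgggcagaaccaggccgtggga
Pgk1, chrX:106186850-106187149, plus strand: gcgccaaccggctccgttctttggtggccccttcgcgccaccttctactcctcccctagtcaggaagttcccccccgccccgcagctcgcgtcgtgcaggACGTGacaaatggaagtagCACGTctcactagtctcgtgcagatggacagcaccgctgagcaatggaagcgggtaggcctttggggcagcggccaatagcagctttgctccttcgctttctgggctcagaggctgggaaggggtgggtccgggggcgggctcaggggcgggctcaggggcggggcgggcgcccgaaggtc
Adm, chr7:110627407-110627706, plus strand: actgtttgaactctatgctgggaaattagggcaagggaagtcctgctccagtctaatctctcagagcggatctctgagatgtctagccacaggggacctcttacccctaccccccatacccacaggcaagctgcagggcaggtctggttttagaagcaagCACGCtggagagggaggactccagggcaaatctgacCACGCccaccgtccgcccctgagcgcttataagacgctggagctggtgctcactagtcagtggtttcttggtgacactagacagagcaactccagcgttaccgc
The window of Fam162a holds 6 core matches, that of Ankrd37 holds 4, of which 2 overlap, those of Pgk1 and Adm hold 2 each and that of Egln3 holds 1. The target that rose and those that fell thus all carry the core in these windows, and a match is not evidence of binding.

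One array stood apart, replicate 2 of TNF at 6 d. The spread of its values over probe sets was narrow, with a standard deviation (SD) of 2.04 where the remaining 20 arrays had 2.44 to 2.51. Its Actb and Gapdh control probe sets differed by 2.00 between their 3′ and 5′ ends, a sign of RNA quality, against at most 0.777 elsewhere. Next on this measure came replicate 2 of Dex at 6 d (0.777), replicate 2 of TNF at 2 h (0.736) and replicate 3 of TNF at 24 h (0.683). The remaining arrays had at most 0.283. Correlations of replicate 2 of TNF at 6 d with its group mates over genes were 0.900 and 0.901, against at least 0.989 between other mates. Values for TNF at 6 d are therefore given from a fit of all 21 arrays and from a fit of 20 arrays without it, and in each triplet below the second value at 6 d of TNF is that array. The other comparisons come from a fit of the 18 arrays of the other 6 groups. Of 8 adipocyte markers measured, all lay above the level threshold in every group, and array means of these markers were 12.19 to 12.38 at 6 d of Dex and 11.04 to 11.83 at 6 d of TNF, against 12.49 to 12.53 in control. By limma, 7 of the 8 were lower at 24 h of TNF, 6 at 6 d of TNF and 2 at 6 d of Dex, where 11.7%, 10.7% and 12.9% of all genes tested were lower. Of 7 preadipocyte or fibroblast markers measured, 6 lay above the threshold in every group, with array means of 8.78 to 9.07 at 6 d of Dex and 10.25 to 10.55 at 6 d of TNF, against 9.84 to 10.10 in control. Of the 6 tested, 5 were lower at 6 d of Dex. At 6 d of TNF 2 of them were higher and 0 lower, with and without replicate 2, where 4.52% and 10.5% of all genes were higher. At 24 h of TNF 2 were higher and 1 lower, against 12.5% and 11.7% of all genes. Of 7 macrophage markers, 2 or 3 lay above the threshold, 3 of the 4 tested were higher at 24 h of TNF, and the defining Adgre1, Ptprc and Itgam were below it on every array. Of 5 endothelial markers 1 lay above the threshold. In bulk RNA fewer cells of a type and less RNA per cell cannot be told apart, and the part of these marker shifts in the results was not tested.

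Enzymes and other targets both had lower means after 6 d of either agent, and only the Dex arrays lay below control at 24 h as well. The mean of the 14 enzymes was 10.86 to 10.95 on the 6 d Dex arrays and 10.86 and 10.91 on replicates 1 and 3 of 6 d TNF (9.74 on replicate 2), against 11.53 to 11.71 in control. The mean of the 13 other targets was 9.06 to 9.15 at 6 d of Dex and 8.93 and 8.95 on the same 2 arrays of 6 d TNF (8.02 on replicate 2), against 9.85 to 10.32 in control. At 24 h the Dex arrays had already moved down, with 11.12 to 11.40 for enzymes and 9.16 to 9.68 for targets, below every control array in both classes. The TNF arrays at 24 h, at 11.41 to 11.58 and 9.70 to 10.26, overlapped the control arrays. At 2 h both treatments overlapped control in both classes.

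**Figure D1:**
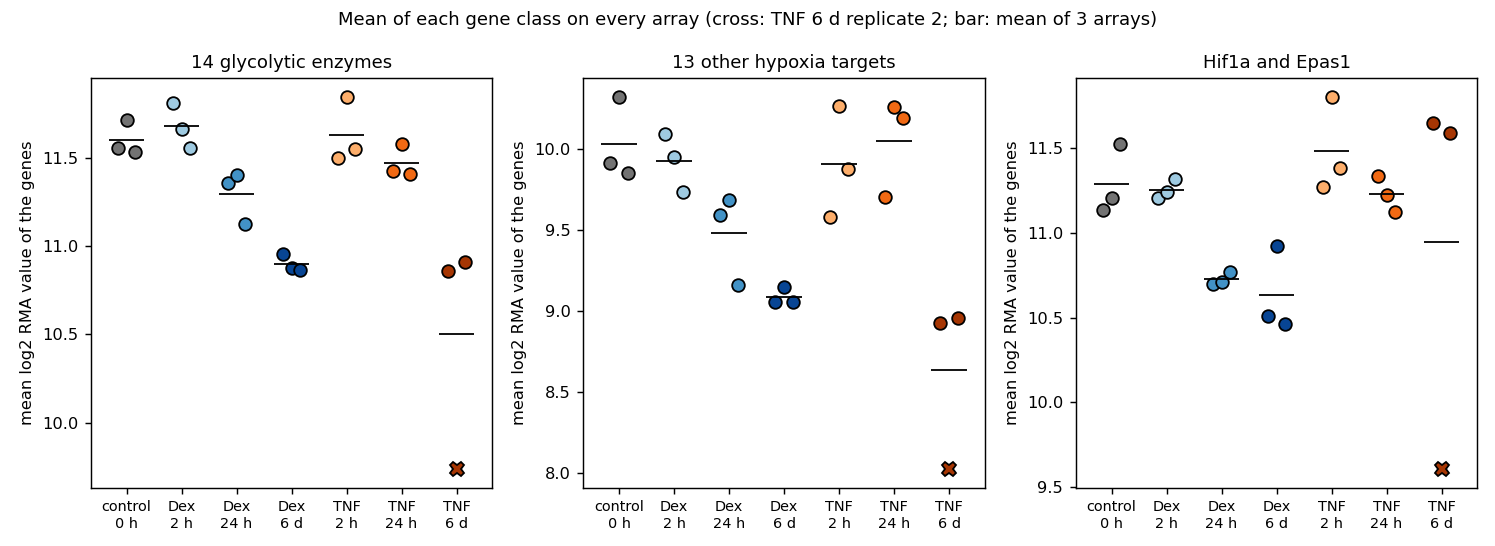
Mean log2 RMA value of the 14 tested glycolytic enzymes, the 13 other hypoxia targets and the 2 HIF alpha subunits on each of the 21 arrays, with points for arrays, bars for means of 3 arrays and a cross for replicate 2 of TNF at 6 d. The enzyme means at 6 d lie at 10.86 to 10.95 under Dex and at 10.86, 10.91 and, on the array marked by the cross, 9.74 under TNF, all under the control arrays.

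Tests were made with limma across 12156 genes, and a member is called when its Benjamini-Hochberg adjusted p is below 0.05, so that a member not called is not shown to be unchanged. Every value of a gene on an array is its deposited log2 value from robust multi-array averaging (RMA), which normalizes the arrays against each other. A change is a log2 difference ± its standard error (SE), 3 arrays against 3 (2 against 3 without replicate 2 of TNF at 6 d). At 2 h of Dex, 1 of 29 members was higher and 1 lower, where 4.05% of all genes tested were higher and 2.57% lower. TNF at 2 h had 2 members higher and 1 lower, where 6.35% of genes were higher and 3.59% lower. These shares at 2 h are near those of all genes. Dex at 24 h had 3 higher and 12 lower, against 5.86% and 6.25% of genes. At 6 d of Dex 2 were higher and 19 lower, against 9.76% and 12.9% of genes. TNF at 24 h had 3 higher, near the share of 12.5% of genes, and 7 lower, against 11.7% of genes. At 6 d of TNF 1 was higher and 21 lower, against 4.52% and 10.7% of genes. Without replicate 2 the counts at 6 d of TNF were again 1 and 21, against 10.5% and 9.93% of genes. A fit of the TNF 6 d and control arrays alone called 0 members, and 24 once replicate 2 was left out, where 2577 of the 12156 genes were called. The count over all genes in the fit with replicate 2 is not given here, so its 0 has no background beside it. All 140 calls over the 13 comparisons kept their sign in every other setting tried. The filters, the replicate block and the choice of other groups in the fit leave each change as it is. Only rescaling, averaging of probe sets or leaving out an array of the groups compared could move a sign.

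The median change of the 14 enzymes was -0.71 at 6 d of Dex and -1.09 at 6 d of TNF (-0.78 without replicate 2). For the 13 other targets it was -0.67 at 6 d of Dex and -1.63 at 6 d of TNF (-1.33 without replicate 2). The median over all genes tested was -0.02 at 6 d of Dex and -0.23 at 6 d of TNF (-0.05 without replicate 2). Under cyclic loess scaling of the arrays the median over all genes at 6 d of TNF was 0.03. The 2 comparisons share their control arrays, and each has its own values for the members below.

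**Figure D2:**
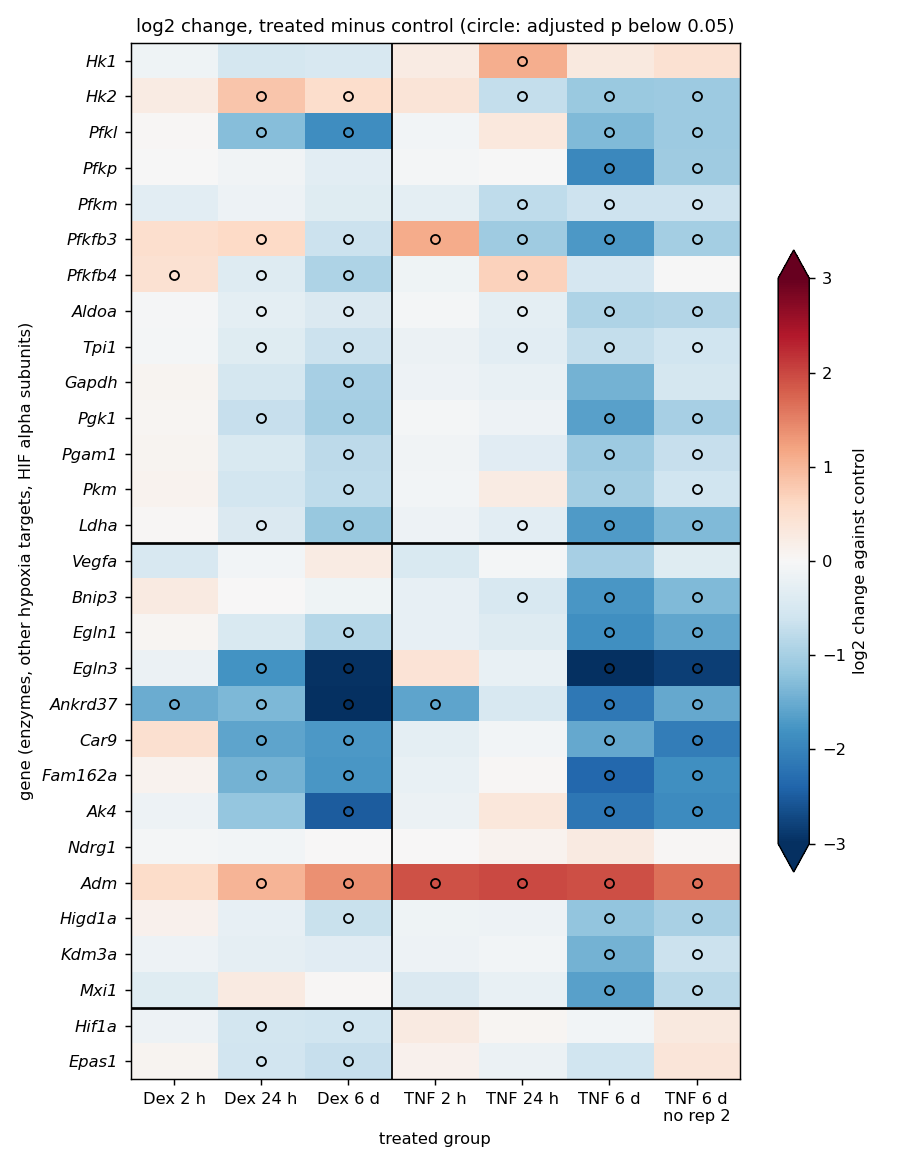
Log2 change of each of the 29 tested members (rows, with lines between enzymes, other targets and HIF alpha subunits) in each treated group minus control, with circles where the adjusted p is below 0.05. Colour runs to 3 in either direction, with lower values in blue, and the last column leaves out replicate 2 of TNF at 6 d. Circled falls number 12 at 24 h of Dex, 19 at 6 d of Dex and 21 at 6 d of TNF, and Adm is higher than control in every column.

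Glucose is trapped in the cell by hexokinases, and the 2 measured isoforms moved in opposite directions at 24 h of TNF. Hk2 had 10.61, 11.01 and 10.87 in control, 11.08, 11.05 and 11.09 at 2 h, 11.65, 11.68 and 11.63 at 24 h and 11.25, 11.55 and 11.28 at 6 d of Dex. Under TNF, Hk2 had 11.003, 11.51 and 11.14 at 2 h, 9.89, 10.22 and 10.24 at 24 h and 9.75, 9.69 and 9.74 at 6 d. All 6 Dex arrays at 24 h and 6 d lay above the 3 control arrays, and all TNF arrays at 24 h and 6 d lay below them. Hk2, the insulin-responsive isoform of fat and muscle, rose by 0.83 ± 0.13 at 24 h of Dex and 0.53 ± 0.13 at 6 d, with limma adjusted p of 0.00024 and 0.00658. Under TNF its change was -0.71 ± 0.13 at 24 h and -1.10 ± 0.16 at 6 d, with limma adjusted p of 0.000532 and 0.000207. Hk1 had 8.57, 8.89 and 8.64 in control, 8.78, 8.50 and 8.45 at 2 h, 8.08, 8.12 and 8.28 at 24 h and 8.23, 8.36 and 8.05 at 6 d of Dex. Under TNF, Hk1 had 8.82, 9.22 and 8.79 at 2 h, 9.57, 9.45 and 10.33 at 24 h and 9.19, 8.71 and 9.10 at 6 d. For Hk1, the isoform of most tissues, the TNF arrays at 24 h were the highest of all and did not overlap control. Hk1 rose by 1.09 ± 0.19 (limma adjusted p = 0.000212) at 24 h of TNF, and its values of -0.54 ± 0.19 at 24 h and -0.48 ± 0.19 at 6 d of Dex were not called, although those 6 arrays lay below the control arrays. Hk1 was called lower at both times with its probe sets averaged (limma adjusted p = 0.00775 and 0.00297), with cyclic loess (0.0264 and 0.0385) and with only the 2 groups fitted (0.0145 and 0.0356).

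**Figure D3:**
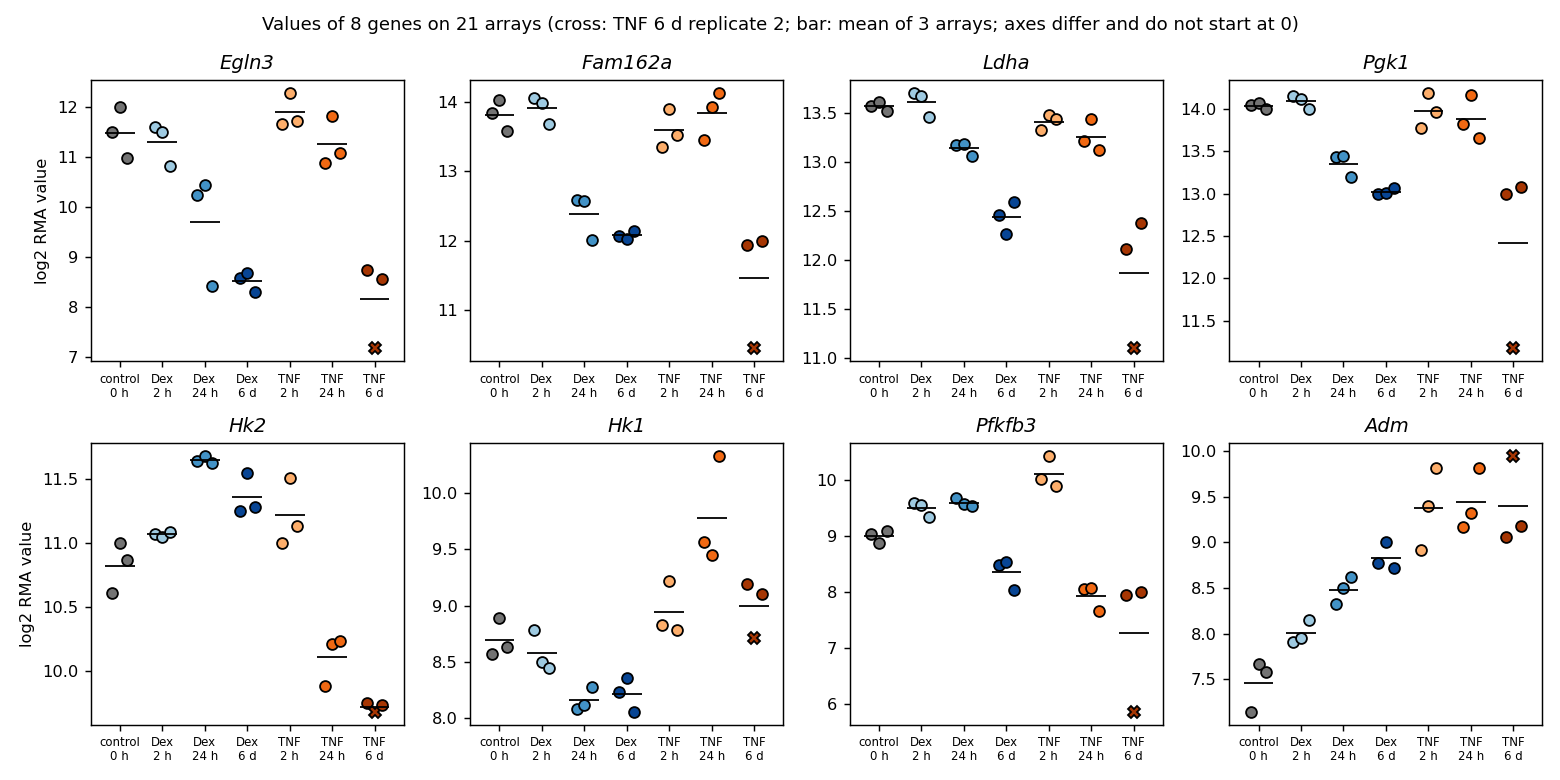
Log2 RMA values of 8 members on all 21 arrays, from control through 2 h, 24 h and 6 d of Dex and of TNF, with bars for means of 3 arrays and a cross for replicate 2 of TNF at 6 d. Egln3, Fam162a, Ldha and Pgk1 fall with time under Dex and are low at 6 d of TNF, Hk2 and Hk1 part by agent, Pfkfb3 is highest at 2 h of TNF, and Adm lies above every control array in all treated groups.

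Phosphofructokinase carries out the committed step, and Pfkl, its liver-type form, was the one of 3 measured forms called against control under Dex. Pfkl had 10.15, 10.58 and 9.94 in control, 10.72, 10.14 and 9.93 at 2 h, 9.25, 9.35 and 8.26 at 24 h and 8.51, 8.33 and 8.26 at 6 d of Dex. Under TNF, Pfkl had 9.93, 10.42 and 10.09 at 2 h, 10.47, 10.47 and 10.68 at 24 h and 9.12, 8.41 and 9.14 at 6 d. The Dex arrays at 24 h and 6 d and the TNF arrays at 6 d all lay under the control arrays. Pfkl changed by -1.27 ± 0.24 (limma adjusted p = 0.00115) at 24 h of Dex. For Pfkl the 6 d change was -1.86 ± 0.24 under Dex (limma adjusted p = 1.17e-05), a 3.62-fold fall, and -1.33 ± 0.28 under TNF (limma adjusted p = 0.00457, and -1.09 ± 0.26 without replicate 2). Pfkp had 9.51, 10.004 and 9.75 in control, 9.86, 9.94 and 9.44 at 2 h, 9.57, 9.72 and 9.66 at 24 h and 9.50, 9.75 and 9.11 at 6 d of Dex. Under TNF, Pfkp had 9.32, 10.43 and 9.35 at 2 h, 9.48, 10.01 and 9.72 at 24 h and 8.71, 6.09 and 8.65 at 6 d. Platelet-type Pfkp overlapped control under Dex and lay below it at 6 d of TNF, where replicate 2 was lowest by far. That change was -1.94 ± 0.48 (limma adjusted p = 0.0119), and -1.08 ± 0.26 without replicate 2, so that this 1 array moved the value by over 1.5 times. Pfkm had 9.60, 9.65 and 10.07 in control, 9.66, 9.39 and 9.36 at 2 h, 9.58, 9.62 and 9.69 at 24 h and 9.33, 9.50 and 9.38 at 6 d of Dex. Under TNF, Pfkm had 9.33, 9.80 and 9.34 at 2 h, 9.14, 8.90 and 9.02 at 24 h and 9.20, 9.17 and 9.13 at 6 d. Muscle-type Pfkm lay under control on all 6 TNF arrays at 24 h and 6 d and changed by -0.75 ± 0.14 (limma adjusted p = 0.000573) at 24 h and -0.61 ± 0.17 (limma adjusted p = 0.0203) at 6 d. At 6 d of TNF the calls of Pfkp without control replicate 2 and of Pfkm without control replicate 3 were lost, at limma adjusted p of 0.0511 and 0.106. Under cyclic loess scaling the 6 d TNF value of Pfkm was -0.17 (limma adjusted p = 0.592), which ended its call.

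The bifunctional enzymes that set the level of the main activator of phosphofructokinase changed direction with time. Pfkfb3 had 9.02, 8.87 and 9.08 in control, 9.58, 9.55 and 9.33 at 2 h, 9.67, 9.57 and 9.54 at 24 h and 8.47, 8.54 and 8.03 at 6 d of Dex. Under TNF, Pfkfb3 had 10.004, 10.42 and 9.89 at 2 h, 8.05, 8.07 and 7.65 at 24 h and 7.94, 5.85 and 7.99 at 6 d. Every TNF array at 2 h lay above every control array for Pfkfb3, and every TNF array at 24 h and 6 d lay below. Pfkfb3, the form with the strongest bias to activation, rose by 1.12 ± 0.16 (limma adjusted p = 4.69e-05) at 2 h of TNF. Its later changes under TNF were -1.07 ± 0.16 at 24 h and -1.73 ± 0.38 at 6 d (-1.03 ± 0.17 without replicate 2), with limma adjusted p of 4.52e-05 and 0.00527. Under Dex its change was 0.60 ± 0.16 at 24 h and -0.64 ± 0.16 at 6 d, with limma adjusted p of 0.0155 and 0.00552. Pfkfb4 had 9.29, 9.41 and 9.28 in control, 9.77, 9.66 and 9.91 at 2 h, 8.91, 9.10 and 8.80 at 24 h and 8.40, 8.49 and 8.28 at 6 d of Dex. Under TNF, Pfkfb4 had 9.11, 9.30 and 9.15 at 2 h, 9.93, 10.004 and 10.15 at 24 h and 9.45, 7.87 and 9.18 at 6 d. Pfkfb4 was above control on all 3 arrays at 2 h of Dex and below it at 24 h and 6 d, and it was above control on all 3 arrays at 24 h of TNF. Its changes were 0.46 ± 0.11 at 2 h, -0.39 ± 0.11 at 24 h and -0.94 ± 0.11 at 6 d of Dex, with limma adjusted p of 0.015, 0.0269 and 4.14e-06. At 24 h of TNF Pfkfb4 rose by 0.70 ± 0.11 (limma adjusted p = 0.000104). The call of Pfkfb3 at 24 h of Dex was lost without Dex replicate 1 or control replicate 2 (limma adjusted p up to 0.0783), and with its probe sets averaged (0.34, adjusted p = 0.0676). That of Pfkfb4 was lost at 2 h of Dex without Dex replicate 1 or 3 or control replicate 1 (up to 0.103), and at 24 h of Dex without Dex replicate 1 or 3 or control replicate 1 or 2 (up to 0.129).

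The enzymes of the later steps also fell at 6 d. Pgk1 had 14.04, 14.07 and 13.99 in control, 14.16, 14.12 and 13.99 at 2 h, 13.43, 13.44 and 13.19 at 24 h and 12.9997, 13.002 and 13.06 at 6 d of Dex. Under TNF, Pgk1 had 13.78, 14.19 and 13.96 at 2 h, 13.82, 14.16 and 13.65 at 24 h and 12.99, 11.17 and 13.08 at 6 d. For Pgk1, phosphoglycerate kinase, no Dex array at 24 h or 6 d and no TNF array at 6 d reached the lowest control array. Its change was -0.68 ± 0.11 (limma adjusted p = 0.000251) at 24 h of Dex and -1.01 ± 0.11 (limma adjusted p = 1.28e-06) at 6 d. Under TNF at 6 d the change of Pgk1 was -1.62 ± 0.32 (limma adjusted p = 0.00259), and -0.999 ± 0.12 without replicate 2. Ldha had 13.57, 13.61 and 13.52 in control, 13.71, 13.67 and 13.46 at 2 h, 13.17, 13.19 and 13.06 at 24 h and 12.46, 12.27 and 12.59 at 6 d of Dex. Under TNF, Ldha had 13.32, 13.48 and 13.44 at 2 h, 13.21, 13.44 and 13.12 at 24 h and 12.11, 11.10 and 12.38 at 6 d. Ldha, the lactate dehydrogenase subunit of glycolytic tissues, was lower on all 9 arrays of 24 h Dex, 6 d Dex and 6 d TNF than on any control array. It fell by 1.13 ± 0.10 on the log2 scale at 6 d of Dex, 2.18-fold, with limma adjusted p of 4.34e-08. For Ldha the 6 d TNF change was -1.71 ± 0.22 (limma adjusted p = 6.3e-05), and -1.32 ± 0.11 without replicate 2. At 24 h the Ldha changes were smaller, -0.43 ± 0.10 (limma adjusted p = 0.00429) under Dex and -0.31 ± 0.10 (limma adjusted p = 0.0221) under TNF, the second lost without TNF replicate 1 or 3 or control replicate 1 or 2 (adjusted p up to 0.0879) or with cyclic loess (adjusted p = 0.0982).

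Aldolase and triose phosphate isomerase, which cut and interconvert the sugar phosphates, were called lower at 24 h and 6 d of both agents, though several of these calls depended on the scaling of the arrays. Aldoa had 14.08, 14.15 and 14.11 in control, 14.19, 14.07 and 13.95 at 2 h, 13.87, 13.89 and 13.71 at 24 h and 13.68, 13.70 and 13.67 at 6 d of Dex. Under TNF, Aldoa had 13.96, 14.27 and 13.95 at 2 h, 13.81, 13.96 and 13.70 at 24 h and 13.17, 13.12 and 13.30 at 6 d. All 6 d arrays of Aldoa lay below control, and the TNF ones lay below every Dex one. Changes of Aldoa at 6 d were -0.43 ± 0.09 (limma adjusted p = 0.00125) under Dex and -0.92 ± 0.10 (limma adjusted p = 1.64e-05) under TNF. Tpi1 had 13.85, 13.90 and 13.75 in control, 13.82, 13.80 and 13.70 at 2 h, 13.52, 13.56 and 13.32 at 24 h and 13.25, 13.03 and 13.27 at 6 d of Dex. Under TNF, Tpi1 had 13.60, 13.77 and 13.60 at 2 h, 13.54, 13.77 and 13.25 at 24 h and 13.18, 12.89 and 13.27 at 6 d. No Tpi1 array at 6 d of either agent reached the control arrays. Its changes at 6 d were -0.64 ± 0.11 (limma adjusted p = 0.000157) under Dex and -0.72 ± 0.13 (limma adjusted p = 0.00148) under TNF. At 24 h the changes of Aldoa were -0.29 ± 0.09 under Dex and -0.29 ± 0.09 under TNF, and those of Tpi1 -0.36 ± 0.11 under Dex and -0.31 ± 0.11 under TNF, with limma adjusted p of 0.0363, 0.0222, 0.0294 and 0.0406. Aldoa at 24 h of Dex was lost when any 1 of the 6 arrays compared was left out (adjusted p up to 0.16), and at 24 h of TNF without TNF replicate 1 or 3 or control replicate 2 or 3 (up to 0.0883). Tpi1 was lost without treated replicate 1 or 3 or control replicate 1 or 2, under Dex (up to 0.142) and under TNF (up to 0.209). With cyclic loess Tpi1 lost its calls at 6 d of TNF, at -0.31 (limma adjusted p = 0.12), and at 24 h of TNF (adjusted p = 0.155), and Aldoa lost those at 24 h of Dex and of TNF (adjusted p = 0.079 and 0.189). Median centring lost both genes at 24 h of Dex (adjusted p = 0.107 for Aldoa and 0.106 for Tpi1).

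Phosphoglycerate mutase and pyruvate kinase, of the last steps of glycolysis, were lower at 6 d of both agents. Pgam1 had 13.18, 13.29 and 13.06 in control, 13.46, 13.23 and 13.07 at 2 h, 12.84, 12.89 and 12.46 at 24 h and 12.42, 12.34 and 12.40 at 6 d of Dex. Under TNF, Pgam1 had 12.95, 13.24 and 13.03 at 2 h, 12.90, 13.19 and 12.44 at 24 h and 12.39, 11.29 and 12.61 at 6 d. Phosphoglycerate mutase, Pgam1, was below control on all 6 d arrays. Its 6 d changes were -0.79 ± 0.15 (limma adjusted p = 0.000699) under Dex and -1.08 ± 0.25 (limma adjusted p = 0.00811) under TNF, and -0.68 ± 0.17 without replicate 2. Pkm had 11.79, 12.01 and 11.25 in control, 12.0002, 11.72 and 11.66 at 2 h, 11.35, 11.35 and 10.73 at 24 h and 11.09, 10.72 and 10.93 at 6 d of Dex. Under TNF, Pkm had 11.51, 11.78 and 11.53 at 2 h, 11.80, 11.94 and 12.05 at 24 h and 10.98, 9.80 and 11.20 at 6 d. Pyruvate kinase, Pkm, also lay below control on every 6 d array, and at 24 h of TNF it overlapped control. Changes of Pkm were -0.77 ± 0.18 (limma adjusted p = 0.00387) at 6 d of Dex and -1.03 ± 0.28 (limma adjusted p = 0.0222) at 6 d of TNF, and -0.60 ± 0.20 without replicate 2. The TNF call of Pkm was lost without control replicate 1 or 2 (limma adjusted p up to 0.102). Deviations from group means at 24 h of Dex correlated at 0.233 to 0.447 with control arrays of the same replicate number, though the labels state no pairing. With the replicate block, Pgam1 (-0.45 ± 0.15), Pkm (-0.54 ± 0.18) and Ak4 (-1.17 ± 0.38) were called at 24 h of Dex, at limma adjusted p of 0.0172, 0.0347 and 0.0133. Without the block their limma adjusted p were 0.0629, 0.0566 and 0.0534.

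The calls of Gapdh, glyceraldehyde phosphate dehydrogenase, depended on the probe set read. Gapdh had 14.50, 14.53 and 14.17 in control, 14.58, 14.45 and 14.44 at 2 h, 14.11, 14.11 and 13.38 at 24 h and 13.73, 12.70 and 13.76 at 6 d of Dex. Under TNF, Gapdh had 14.33, 13.97 and 14.43 at 2 h, 14.35, 14.48 and 13.73 at 24 h and 13.80, 11.16 and 13.97 at 6 d. These Gapdh values come from the 5′ control probe set, the one with the highest mean, whose 2 lowest readings were on replicate 2 at 6 d of TNF and replicate 2 at 6 d of Dex, the arrays with the largest 3′ to 5′ differences. Gapdh changed by -1.003 ± 0.25 (limma adjusted p = 0.00532) at 6 d of Dex and was not called at 6 d of TNF (-1.42 ± 0.50, limma adjusted p = 0.0604). Through the 3′ probe set, a reading chosen after seeing the data, Gapdh was lower at 24 h of Dex (-0.62 ± 0.15, limma adjusted p = 0.00625) and at 6 d of Dex (-0.97 ± 0.15, limma adjusted p = 5.89e-05). That probe set also read lower at 6 d of TNF (-1.06 ± 0.26, limma adjusted p = 0.0108), and without replicate 2 (-0.62 ± 0.16, limma adjusted p = 0.00829). Gapdh is often used as a constant reference gene in such cells, and here its 3′ probe set read lower at 6 d of both agents. Aldoc, the brain aldolase, lay below the level threshold on every array and was not tested, and Gpi1 and Eno1, phosphoglucose isomerase and alpha enolase, were not analysed here because no probe set of 1 gene carried their symbols.

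Both measured genes of the oxygen-sensing prolyl hydroxylases were lower at 6 d of either agent. Egln3 had 11.49, 11.99 and 10.97 in control, 11.59, 11.49 and 10.81 at 2 h, 10.23, 10.44 and 8.43 at 24 h and 8.58, 8.68 and 8.30 at 6 d of Dex. Under TNF, Egln3 had 11.65, 12.28 and 11.72 at 2 h, 10.87, 11.82 and 11.08 at 24 h and 8.75, 7.17 and 8.56 at 6 d. All 6 arrays at 6 d lay more than 2 units below the lowest control array, and at 24 h of Dex replicate 3 stood well under its mates. Egln3 changed by -1.78 ± 0.39 (limma adjusted p = 0.00386) at 24 h of Dex and -2.96 ± 0.39 (limma adjusted p = 1.38e-05) at 6 d. The 6 d fall under Dex was 7.78-fold. Egln3 at 6 d of TNF changed by -3.32 ± 0.47 (limma adjusted p = 0.000187), and -2.83 ± 0.43 (limma adjusted p = 6.27e-05) without replicate 2, whereas at 24 h of TNF the value of -0.22 ± 0.39 was not called. Egln1 had 10.54, 10.89 and 10.58 in control, 10.85, 10.87 and 10.45 at 2 h, 10.23, 10.31 and 10.10 at 24 h and 9.74, 9.75 and 9.97 at 6 d of Dex. Under TNF, Egln1 had 10.04, 10.91 and 10.31 at 2 h, 9.87, 10.56 and 10.42 at 24 h and 9.12, 8.26 and 9.11 at 6 d. Egln1, the main oxygen sensor of most cells, was below control on all arrays at 24 h and 6 d of Dex and at 6 d of TNF. Its change was -0.85 ± 0.20 (limma adjusted p = 0.00345) at 6 d of Dex and -1.84 ± 0.25 (limma adjusted p = 0.000153) at 6 d of TNF, -1.56 ± 0.21 without replicate 2, and at 24 h of Dex -0.46 ± 0.20 was not called.

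Fam162a and Ak4, which act in mitochondria, were lower at 6 d of both agents, and Fam162a also at 24 h of Dex. Fam162a had 13.84, 14.02 and 13.58 in control, 14.06, 13.99 and 13.68 at 2 h, 12.59, 12.57 and 12.01 at 24 h and 12.07, 12.02 and 12.14 at 6 d of Dex. Under TNF, Fam162a had 13.36, 13.90 and 13.53 at 2 h, 13.45, 13.93 and 14.14 at 24 h and 11.93, 10.45 and 12.002 at 6 d. Fam162a, a mitochondrial protein tied to cell death in hypoxia, was below every control array on all arrays at 24 h and 6 d of Dex, and it overlapped control at 24 h of TNF. Its changes were -1.43 ± 0.18 (limma adjusted p = 1.35e-05) at 24 h and -1.74 ± 0.18 (limma adjusted p = 5.53e-07) at 6 d of Dex. Fam162a at 6 d of TNF changed by -2.36 ± 0.31 (limma adjusted p = 8.39e-05), and -1.85 ± 0.19 without replicate 2. Ak4 had 8.52, 9.38 and 8.39 in control, 9.04, 8.66 and 8.09 at 2 h, 7.90, 8.05 and 6.84 at 24 h and 6.04, 6.60 and 6.12 at 6 d of Dex. Under TNF, Ak4 had 8.12, 9.38 and 8.27 at 2 h, 8.37, 9.41 and 9.50 at 24 h and 6.80, 5.998 and 6.95 at 6 d. Ak4, a mitochondrial adenylate kinase, was below control on all 6 d arrays, after a wide spread at 24 h of Dex. Its 6 d changes were -2.51 ± 0.38 (limma adjusted p = 6.57e-05) under Dex and -2.18 ± 0.42 (limma adjusted p = 0.00216) under TNF.

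Of the other mitochondrial targets, Higd1a fell at 6 d of both agents, and Bnip3 fell at 24 h and 6 d of TNF. Higd1a had 13.02, 13.21 and 12.82 in control, 13.29, 13.18 and 12.93 at 2 h, 12.81, 12.85 and 12.67 at 24 h and 12.29, 12.34 and 12.41 at 6 d of Dex. Under TNF, Higd1a had 12.70, 13.15 and 12.80 at 2 h, 12.62, 13.01 and 12.96 at 24 h and 12.10, 11.46 and 11.97 at 6 d. Higd1a, a protein of the respiratory chain, was below control on all 6 d arrays, and its change was -0.67 ± 0.13 (limma adjusted p = 0.000734) under Dex and -1.17 ± 0.17 (limma adjusted p = 0.000248) under TNF. Bnip3 had 13.81, 13.94 and 13.67 in control, 14.18, 14.12 and 13.94 at 2 h, 13.81, 13.87 and 13.79 at 24 h and 13.60, 13.75 and 13.67 at 6 d of Dex. Under TNF, Bnip3 had 13.32, 13.89 and 13.51 at 2 h, 13.26, 13.69 and 13.06 at 24 h and 12.53, 11.21 and 12.42 at 6 d. Bnip3, a receptor that sends mitochondria to autophagy, lay above control at 2 h of Dex, overlapped it at 24 h and 6 d of Dex and lay under it at 6 d of TNF. Bnip3 changed by -1.75 ± 0.25 (limma adjusted p = 0.000193) at 6 d of TNF, -1.33 ± 0.15 without replicate 2, against -0.13 ± 0.14 at 6 d of Dex, which was not called. At 24 h of TNF Bnip3 changed by -0.47 ± 0.14 (limma adjusted p = 0.0171), a call lost without TNF replicate 1 or 3 or control replicate 2 (up to 0.0994) or with cyclic loess (adjusted p = 0.0581). Its relative Bnip3l was not analysed here, because its probe sets are shared with a pseudogene.

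Ankrd37, an ankyrin repeat gene, and Car9, a carbonic anhydrase of the cell surface, are often read as HIF markers. Ankrd37 had 7.67, 8.19 and 7.68 in control, 6.66, 5.92 and 6.49 at 2 h, 6.82, 6.98 and 5.68 at 24 h and 4.81, 4.96 and 4.81 at 6 d of Dex. Under TNF, Ankrd37 had 5.50, 6.97 and 6.35 at 2 h, 6.51, 7.46 and 8.14 at 24 h and 6.21, 4.51 and 6.40 at 6 d. Ankrd37 was the one member called lower at 2 h, with all 2 h arrays of both agents below control, and at 6 d of Dex it lay under the level threshold on all 3 arrays. Its change was -1.49 ± 0.39 (limma adjusted p = 0.0215) at 2 h of Dex and -1.57 ± 0.39 (limma adjusted p = 0.0101) at 2 h of TNF. At 24 h of Dex Ankrd37 changed by -1.35 ± 0.39 (limma adjusted p = 0.0253). At 6 d the changes of Ankrd37 were -2.99 ± 0.39 (limma adjusted p = 1e-05) under Dex, a lower limit on its size since that group is near background, and -2.14 ± 0.48 (limma adjusted p = 0.00661) under TNF (-1.54 ± 0.42 without replicate 2). The 2 h Dex call was lost without Dex replicate 2 or 3 or control replicate 2 (up to 0.117), the 24 h Dex call without Dex replicate 3 or control replicate 2 (up to 0.157), and the 2 h TNF call without TNF replicate 1 or control replicate 2 (up to 0.0757). Car9 had 5.87, 6.48 and 5.75 in control, 6.73, 6.72 and 6.09 at 2 h, 4.48, 4.41 and 4.43 at 24 h and 4.31, 4.31 and 4.32 at 6 d of Dex. Under TNF, Car9 had 5.10, 6.61 and 5.50 at 2 h, 5.10, 6.32 and 6.47 at 24 h and 3.89, 5.56 and 4.03 at 6 d. Car9 lay under the level threshold on all arrays at 24 h and 6 d of Dex and on replicates 1 and 3 at 6 d of TNF. Car9 changed by -1.59 ± 0.34 (limma adjusted p = 0.00268) at 24 h of Dex and -1.72 ± 0.34 (limma adjusted p = 0.000812) at 6 d, both lower limits. Its 6 d TNF change was -1.54 ± 0.42 (limma adjusted p = 0.0209), lost without control replicate 2 (up to 0.0938), and -2.07 ± 0.37 (limma adjusted p = 0.000316) without TNF replicate 2, a lower limit as well, since replicate 2 was the one TNF array over the threshold there. Car12 and Slc16a3, a second carbonic anhydrase and a lactate exporter, were below the level threshold on every array and were not tested.

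Of the targets that act on chromatin and transcription, both were called lower at 6 d of TNF and not at 6 d of Dex. Kdm3a had 10.84, 11.19 and 11.02 in control, 10.97, 10.75 and 10.86 at 2 h, 10.75, 10.82 and 10.65 at 24 h and 10.63, 10.86 and 10.54 at 6 d of Dex. Under TNF, Kdm3a had 10.50, 11.25 and 10.86 at 2 h, 10.80, 11.04 and 10.96 at 24 h and 10.31, 8.05 and 10.44 at 6 d. Mxi1 had 9.23, 9.85 and 9.53 in control, 9.25, 9.27 and 9.03 at 2 h, 9.88, 9.99 and 9.55 at 24 h and 9.55, 9.77 and 9.37 at 6 d of Dex. Kdm3a, a histone demethylase, and Mxi1, an antagonist of Myc, overlapped control at 6 d of Dex. Under TNF, Mxi1 had 8.87, 9.54 and 8.92 at 2 h, 9.16, 9.58 and 9.20 at 24 h and 8.79, 6.26 and 8.67 at 6 d. Kdm3a at 6 d of TNF changed by -1.42 ± 0.40 (limma adjusted p = 0.0256), and -0.64 ± 0.16 (limma adjusted p = 0.00718) without replicate 2. Mxi1 changed by -1.63 ± 0.44 (limma adjusted p = 0.0195) there, and -0.81 ± 0.21 (limma adjusted p = 0.00726) without replicate 2, so that this array moved both sizes by over 1.5 times. With all 3 TNF arrays, leaving out any 1 control array lost Kdm3a (up to 0.0866) and leaving out control replicate 2 or 3 lost Mxi1 (up to 0.0796). The direct test of Dex minus TNF at 6 d is given below and called Mxi1, not Kdm3a.

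Adm, which encodes the precursor of the vasodilator peptide adrenomedullin, was the one member called higher at 24 h and 6 d of both agents. Adm had 7.14, 7.66 and 7.58 in control, 7.91, 7.96 and 8.15 at 2 h, 8.33, 8.50 and 8.62 at 24 h and 8.77, 9.0001 and 8.72 at 6 d of Dex. Under TNF, Adm had 8.91, 9.40 and 9.81 at 2 h, 9.17, 9.32 and 9.81 at 24 h and 9.05, 9.95 and 9.18 at 6 d. Through the probe set used, Adm read higher on all 18 treated arrays than on all 3 control arrays. Under Dex its change was 1.02 ± 0.20 (limma adjusted p = 0.00142) at 24 h and 1.37 ± 0.20 (limma adjusted p = 4.1e-05) at 6 d, after 0.54 ± 0.20 at 2 h, which was not called. Under TNF Adm rose by 1.91 ± 0.20 at 2 h, 1.97 ± 0.20 at 24 h and 1.93 ± 0.25 at 6 d (1.65 ± 0.22 without replicate 2), with limma adjusted p of 9.24e-07, 3.94e-07 and 8.81e-05. The other Adm probe set read a smaller change at 6 d of TNF with all arrays, 0.73, and 1.55 without replicate 2. In the other treated groups its changes ran from 0.62 at 2 h of Dex to 1.85 at 2 h of TNF. Vegfa, which encodes the growth factor of blood vessels, was not called against control in any group through the probe set used, with means between 9.50 and 10.74 on the log2 scale and changes from -0.99 ± 0.36 at 6 d of TNF to 0.25 ± 0.17 at 6 d of Dex. Ndrg1, a stress-response gene, was also not called through the probe set used, with changes from -0.08 ± 0.17 at 24 h of Dex to 0.27 ± 0.21 at 6 d of TNF. At 6 d of TNF with probe sets averaged, Vegfa was called lower (-0.70, limma adjusted p = 0.0233) and Ndrg1 higher (0.33, limma adjusted p = 0.0181), and median centring also called Vegfa (adjusted p = 0.0492).

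The HIF alpha subunits themselves fell moderately under Dex. Hif1a had 11.60, 11.62 and 12.22 in control, 11.66, 11.66 and 11.71 at 2 h, 11.19, 11.21 and 11.37 at 24 h and 11.07, 11.55 and 11.002 at 6 d of Dex. Under TNF, Hif1a had 11.76, 12.44 and 12.07 at 2 h, 11.98, 11.92 and 11.69 at 24 h and 12.07, 10.96 and 12.17 at 6 d. Epas1 had 10.67, 10.79 and 10.83 in control, 10.75, 10.83 and 10.93 at 2 h, 10.21, 10.21 and 10.17 at 24 h and 9.95, 10.30 and 9.93 at 6 d of Dex. Both genes were below all control arrays on every 24 h and 6 d Dex array. Under TNF, Epas1 had 10.79, 11.17 and 10.69 at 2 h, 10.69, 10.53 and 10.55 at 24 h and 11.24, 8.25 and 11.01 at 6 d. On the TNF arrays at 6 d, replicates 1 and 3 of Epas1 were above control and replicate 2 was far below. Hif1a changed by -0.56 ± 0.18 (limma adjusted p = 0.043) at 24 h and -0.61 ± 0.18 (limma adjusted p = 0.0163) at 6 d of Dex. Epas1, which encodes HIF-2 alpha, changed by -0.57 ± 0.12 (limma adjusted p = 0.00335) at 24 h and -0.70 ± 0.12 (limma adjusted p = 0.000276) at 6 d of Dex. Neither was called in any comparison of TNF with control, and at 6 d of TNF without replicate 2 the values were 0.30 ± 0.19 for Hif1a and 0.36 ± 0.14 for Epas1. The Hif1a calls were lost at 24 h of Dex without any 1 Dex array or control replicate 3 (up to 0.2) or with median centring (0.0623) or no level filter (0.0506) and at 6 d without Dex replicate 1 or 3 or control replicate 3 (up to 0.0978). Those of Epas1 held in all 6 leave-one-out fits at both times. With all 21 arrays in 1 fit, whose spread includes replicate 2 of TNF at 6 d, both genes lost their Dex calls. There the limma adjusted p at 24 h and 6 d was 0.921 and 0.546 for Epas1 and 0.432 and 0.22 for Hif1a.

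Set against each other directly, Dex and TNF gave 4 called members at 2 h, 16 at 24 h and 10 at 6 d. Near the shares of all genes (6.68% higher and 7.31% lower), Dex minus TNF at 2 h called 2 members higher (Pfkfb4 and Bnip3) and 2 lower (Pfkfb3 and Adm). Of these, Pfkfb3 was lost without Dex replicate 3 or TNF replicate 2 (limma adjusted p up to 0.0623) and Bnip3 without replicate 1 or 2 of Dex or 1 or 3 of TNF (up to 0.0993). At 24 h 4 members were higher under Dex (Hk2, Pfkm, Pfkfb3 and Bnip3), near the share of 16.1% of genes, and 12 lower, against 15.6% of genes. Hk2 was higher in Dex than in TNF by 1.54 ± 0.13 (limma adjusted p = 3.33e-08), and Pfkfb3 by 1.66 ± 0.16 (limma adjusted p = 1.11e-07). The 12 lower ones were Hk1, Pfkl, Pfkfb4, Pgk1, Pkm, Egln3, Car9, Fam162a, Ak4, Adm, Hif1a and Epas1. Hk1 differed by -1.62 ± 0.19 (limma adjusted p = 1.31e-06), and Fam162a by -1.45 ± 0.18 (limma adjusted p = 3.24e-06). Of the 16 calls at 24 h, Bnip3 was lost without TNF replicate 3 (up to 0.0676) and Epas1 without Dex replicate 3 or TNF replicate 1 (up to 0.0713) or with median centring (0.0525). With the replicate block, Mxi1 (0.49 ± 0.19) joined them at a limma adjusted p of 0.00637, against 0.0541 without it.

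At 6 d the direct comparison turned on replicate 2 of TNF. With it, 9 members were higher in Dex and 1 lower, against 15.9% and 7.81% of genes, and without it 7 were higher and 6 lower, against 14.4% and 15.8% of genes. Under cyclic loess scaling the split was 6 higher and 5 lower with all arrays. Higher in Dex in both fits were Hk2, Pfkp, Aldoa, Vegfa, Bnip3, Egln1 and Mxi1. Of these, cyclic loess ended the calls of Aldoa (0.15, limma adjusted p = 0.483) and Egln1 (0.55, limma adjusted p = 0.0504). Bnip3 differed by 1.62 ± 0.25 (limma adjusted p = 0.000148) with all arrays and 1.20 ± 0.15 (limma adjusted p = 3.25e-06) without replicate 2. Vegfa was higher in Dex than in TNF by 1.24 ± 0.36 (limma adjusted p = 0.0185), and by 0.61 ± 0.19 (limma adjusted p = 0.0179) without replicate 2. Hk1 was lower in Dex in both fits (-0.78 ± 0.21, limma adjusted p = 0.014). Without replicate 2, Pfkl, Pfkfb4, Ankrd37, Hif1a and Epas1 were also lower in Dex, with differences of -0.91 ± 0.19 for Hif1a and -1.06 ± 0.14 for Epas1 (limma adjusted p = 0.000902 and 4.06e-06), while Pfkfb3 and Higd1a were no longer called. With all TNF arrays, calls were lost for Hk1 without Dex replicate 3 (limma adjusted p up to 0.0611), Pfkp without Dex replicate 1 or 2 (up to 0.077) and Vegfa without Dex replicate 1 or 3 (up to 0.0537). Pfkfb3 and Higd1a were also lost without any 1 Dex array (up to 0.127 and 0.113). Some genes called lower at 6 d of both agents thus differed between the agents without replicate 2. Aldoa and Egln1 were higher in Dex, and Pfkl (-0.77, limma adjusted p = 0.0334) and Ankrd37 (-1.45, limma adjusted p = 0.0124) were lower. Among the other genes that fell under both agents, the difference in that fit was -0.13 ± 0.43 for Egln3, 0.11 ± 0.19 for Fam162a, -0.02 ± 0.12 for Pgk1 and 0.20 ± 0.11 for Ldha, none of these called.

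**Figure D4:**
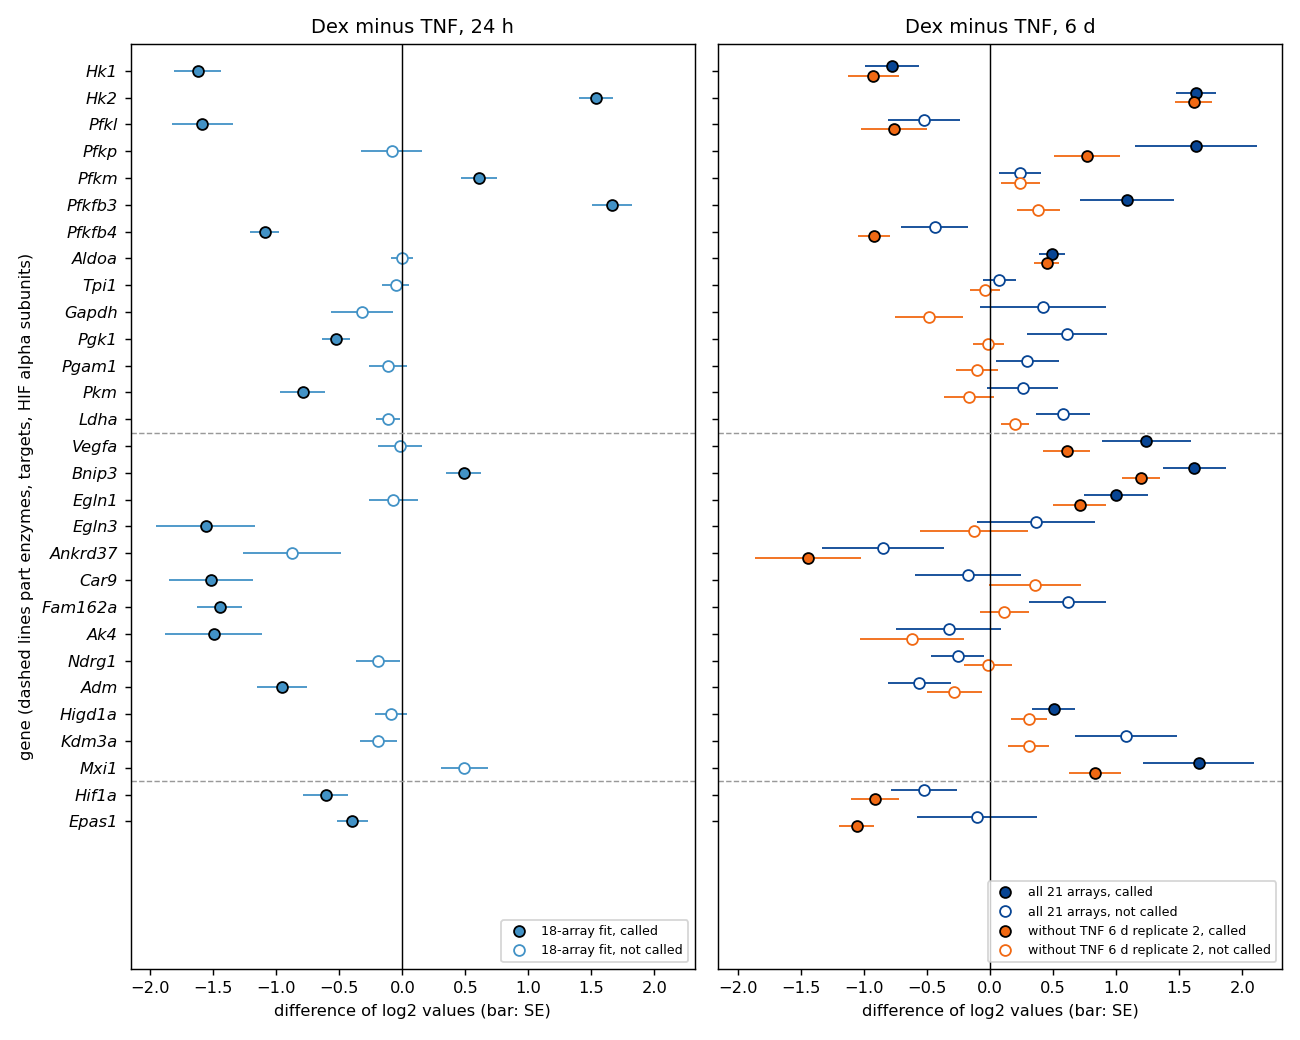
Dex minus TNF difference of log2 values for the 29 tested members at 24 h and 6 d, with bars for the SE and filled points where the adjusted p is below 0.05. At 6 d the fit of all 21 arrays and the fit without replicate 2 of TNF are drawn side by side, and Hif1a and Epas1 are called lower in Dex only in the second.

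Neighbouring times of each agent were also tested against each other. Between 2 h and 24 h of Dex 2 members were higher at the later time and 10 lower, against 5.69% and 6.70% of genes, among them Egln3 at -1.60 ± 0.39 and Car9 at -2.07 ± 0.34, a lower limit since Car9 at 24 h of Dex was under the level threshold. From 24 h to 6 d of Dex 0 were higher and 4 lower (Pfkfb3, Pfkfb4, Ldha and Ankrd37), against 0.995% and 2.99% of genes. TNF at 24 h minus 2 h gave 2 higher (Hk1 and Pfkfb4) and 3 lower (Hk2, Pfkm and Pfkfb3), near the shares of 11.1% and 9.47% of all genes. By limma, 0 of the 13 other targets were called between these TNF times. From 24 h to 6 d of TNF 0 were higher and 16 lower, against 1.21% and 4.78% of genes. Without replicate 2, 1 was higher (Epas1) and 15 were lower, against 4.10% and 5.09% of genes. Between those TNF times Egln3 changed by -2.60 ± 0.43 (limma adjusted p = 0.000359) and Ldha by -1.01 ± 0.11 (limma adjusted p = 3.37e-06), both without replicate 2. Under Dex, 12 of the members were called between 2 h and 24 h and 4 between 24 h and 6 d, and under TNF 5 and 16. Whether the agents differ in this timing was not tested.

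Other genes of the pathways, in lists that were written with earlier results known, were counted in the same fits, and each change given for one was called by limma. Of 36 further hypoxia-inducible genes tested, 2 were higher and 14 lower at 6 d of Dex, and 2 higher and 13 lower at 6 d of TNF (6 and 13 without replicate 2). For all genes tested the shares were 9.76% higher and 12.9% lower at 6 d of Dex, 4.52% and 10.7% at 6 d of TNF, and 10.5% and 9.93% there without replicate 2, so that the 6 higher are near the share of all genes. Plod2 and P4ha1, which hydroxylate collagen, had changes of -2.33 ± 0.18 and -2.29 ± 0.22 at 6 d of Dex, and Cited2, a feedback inhibitor of HIF, of 1.56 ± 0.16. Plod2 had been higher at 2 h of Dex, by 1.38 ± 0.18. Ddit4, a target of both HIF and glucocorticoids, was higher at 2 h of Dex (1.39 ± 0.20) and lower at 2 h of TNF (-1.18 ± 0.20) and at 6 d of TNF (-2.85 ± 0.43, and -2.06 ± 0.22 without replicate 2). Of 19 genes of glucose entry and further glycolysis tested, 3 were higher and 8 lower at 6 d of Dex, and 0 higher and 6 lower at 6 d of TNF in both fits, beside the same shares of all genes. Slc2a1, the basal glucose transporter, fell at 24 h and 6 d of Dex (-1.18 ± 0.30 and -1.26 ± 0.30). Slc2a4, the insulin-responsive one, fell at 2 h, 24 h and 6 d of TNF (-0.46 ± 0.11, -1.14 ± 0.11 and -1.23 ± 0.15). It was also lower at 6 d than at 24 h of Dex (-0.71 ± 0.11), with a mean of 10.08 at 6 d of Dex against 10.85 in control. Pdk1, which keeps pyruvate out of mitochondria, fell at 6 d of Dex (-1.37 ± 0.26) and at 6 d of TNF (-1.91 ± 0.38, and -1.37 ± 0.28 without replicate 2), and its relative Pdk4 was higher at 2 h, 24 h and 6 d of Dex (2.35 ± 0.19, 1.23 ± 0.19 and 1.18 ± 0.19) and lower at 2 h of TNF (-1.40 ± 0.19) and, with all arrays, at 6 d of TNF (-1.07 ± 0.34). Of 15 regulators and partners of HIF tested, 2 were higher and 2 lower at 6 d of Dex, near the shares of 9.76% and 12.9% of all genes, among them Vhl, which targets the alpha subunits for destruction (-0.44 ± 0.15), and Siah2, a ubiquitin ligase that acts on the prolyl hydroxylases, rose at 2 h of TNF (1.29 ± 0.15).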

How the data were processed

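The deposited values are log2 expression, which the authors made by robust multi-array averaging (RMA), per the submitters' processing notes. Software versions and filters are not given in the sources used here. Of 45101 probe sets, 34958 list 1 gene symbol, 932 several and 9211 none. For 34754 of the probe sets of 1 gene the symbol was looked up through the Entrez identifier, whether or not it changed, and 204 kept the listed symbol. Of 18194 genes, 12156 were tested, and 6038 were dim.

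A linear model with a mean per group was fitted in limma 3.58.1 (R 4.3.3, with data.table in version 1.17.8) with a mean-variance trend. The 18-array fit had 12 residual degrees of freedom, the 21-array fit 14 and the 20-array fit 13. Python 3.11.15 with pandas 2.3.3 and numpy 2.4.6 served for file handling. Members, lists, fits and alternatives were chosen with earlier results of these data known. Values on every array are given for members called against control with a change of at least 0.5, for the alpha subunits and for the members of highest and lowest level. Up to 4 called genes per further list and comparison may be named. Chosen after seeing the data were the 3′ probe set of Gapdh and the fit of 2 groups without replicate 2 of TNF at 6 d. An exact permutation test of 3 against 3 arrays has 0.1 as its smallest two-sided p, so limma carries the calls. The number of arrays limits the precision.

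Pairing was checked on deviations from group means across genes. Arrays with the same replicate number correlated above 0.1 in all 3 pairs for Dex 24 h with control (0.233 to 0.447) and with TNF 24 h (0.207 to 0.270), and in no other comparison. Highest of all correlations between 2 arrays was 0.999, and no pair was identical.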

Additional observations from a re-analysis of the deposited data

Results flagged for a closer look

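The change against control differed between neighbouring times, by the limma test of the difference itself (adjusted p below 0.05), for the members below. No explanation was tested. Values are log2 differences, later minus earlier time.

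Between 2 h and 24 h of Dex the difference was 0.58 for Hk2 and 0.62 for Mxi1. It was -1.31 for Pfkl, -0.85 for Pfkfb4, -0.73 for Pgk1, -0.52 for Pgam1, -0.65 for Pkm and -0.47 for Ldha among enzymes. Among the other genes it was -1.60 for Egln3, -2.07 for Car9 (a lower limit in size, its 24 h arrays being under the level threshold), -1.52 for Fam162a and -0.64 for Epas1. Without Dex 24 h replicate 3 or Dex 2 h replicate 1, the calls of Pgam1, Pkm and Egln3 were lost (limma adjusted p up to 0.164, 0.141 and 0.0517), and that of Pgam1 also without Dex 2 h replicate 2. Mxi1 kept its call in 1 of 6 such fits, without Dex 24 h replicate 3 (up to 0.153). From 24 h to 6 d of Dex it was -1.24 for Pfkfb3, -0.54 for Pfkfb4, -0.70 for Ldha and -1.64 for Ankrd37 (likewise a lower limit, at 6 d). Here Pfkfb4 was lost without Dex 24 h replicate 2 (up to 0.0646) and Ankrd37 without replicate 1 or 3 of Dex 6 d or 1 or 2 of Dex 24 h (up to 0.116).

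Between 2 h and 24 h of TNF it was 0.84 for Hk1 and for Pfkfb4, -1.10 for Hk2, -0.47 for Pfkm and -2.18 for Pfkfb3. Pfkm was lost without replicate 2 of either time (up to 0.123). From 24 h to 6 d of TNF, with all 21 arrays, the enzymes had -0.78 for Hk1, -1.65 for Pfkl, -1.92 for Pfkp, -1.20 for Pfkfb4, -0.63 for Aldoa, -1.46 for Pgk1, -1.27 for Pkm and -1.39 for Ldha. The other targets had -1.28 for Bnip3, -1.46 for Egln1, -3.10 for Egln3, -1.66 for Ankrd37, -1.47 for Car9 (of its 6 d arrays, replicates 1 and 3 were under the level threshold), -2.38 for Fam162a, -2.51 for Ak4 and -1.02 for Higd1a. Of these 16, Hk1 and Ankrd37 were not called without replicate 2 of TNF at 6 d, at limma adjusted p of 0.0534 and 0.134. Leaving out TNF 24 h arrays one at a time lost Hk1 (replicate 1 or 3, up to 0.185), Pfkp (any 1, up to 0.0808), Pfkfb4 and Pkm (replicate 3, 0.0536 and 0.0527), Pgk1 (replicate 2, 0.052) and Ankrd37 (replicate 2 or 3, up to 0.222). Car9 was lost without TNF 24 h replicate 2 or 3 or TNF 6 d replicate 1 or 3 (up to 0.202). Cyclic loess ended the calls of Aldoa and Hk1 (limma adjusted p = 0.151 and 0.226).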

How the results depend on the processing

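Leaving the replicates as they are, the counts of called members moved by over 1.5 times in these cases. With all 21 arrays in 1 fit, whose spread includes replicate 2 of TNF at 6 d, the counts were 6 for Dex 24 h minus control (15 without that group), 0 for Dex 2 h (2), 4 for TNF 24 h (10), 1 for TNF 2 h (3), 1 for Dex minus TNF at 2 h (4), 4 for Dex 24 h minus 2 h (12), 0 for Dex 6 d minus 24 h (4) and 3 for TNF 24 h minus 2 h (5). With only the 2 groups compared they were 0 for TNF 6 d minus control (22), 1 for Dex minus TNF at 6 d (10), 0 for TNF 6 d minus 24 h (16), 6 for TNF 24 h minus control, 3 for TNF 24 h minus 2 h, 22 for Dex 24 h minus 2 h and 7 for Dex 6 d minus 24 h. The same 2 groups without replicate 2 of TNF at 6 d, a setting chosen after seeing the data, gave 24, 15 and 12 for the first 3. Of all 12156 genes tested, those fits called 2577, 3792 and 419. Cyclic loess gave 6 for TNF 24 h minus control (3 higher and 3 lower, against 3 and 7). For TNF 24 h minus 2 h median centring gave 2 higher and 5 lower, against 2 and 3, and for Dex 2 h 2 and 1, against 1 and 1. Counts of all genes called in the other settings above are not given here, so these moves are not set against them. The cause of these moves was not tested.

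The replicate block was fitted over all arrays of each fit. It gave 18 calls for Dex 24 h minus control (against 15) and 17 for Dex minus TNF at 24 h (against 16), the 2 comparisons whose same-number arrays all correlated above 0.1. With the block the counts were 4 for Dex 2 h, 5 for TNF 2 h and 7 for Dex 6 d minus 24 h. Counts of all genes called with the block are not given here, so these counts of members are not set against them. Leaving out 1 array gave 0 to 2 calls for Dex 2 h (0 without its replicate 3, 1 without its replicate 1 or 2 or control replicate 1 or 2), 6 to 12 for TNF 24 h (6 without its replicate 1 or 3 or control replicate 2), 6 to 15 for Dex minus TNF at 6 d (6 without Dex replicate 1 or 3) and 2 to 7 for Dex 6 d minus 24 h (2 without Dex 24 h replicate 2, 7 without replicate 3). In the same order, the calls over all genes in these fits ran from 601 to 779, 2388 to 2996, 1814 to 4954 and 273 to 390. Of the 140 single calls, 0 changed sign, which only rescaling, averaging of probe sets or leaving out an array could bring about. Of these calls, 132 were kept with no level filter, 140 with the filter at the 60th percentile, 135 with the mean of all probe sets, 135 with median centring and 128 with cyclic loess. Fewer were kept with only the 2 groups compared, 86 of 140. With all 21 arrays in 1 fit, 44 of the 92 calls from the 18-array fit were kept. Those lost there include Pgk1 at 6 d of Dex (limma adjusted p = 0.0585) and Ldha at 24 h of Dex (limma adjusted p = 0.495). Gapdh at 6 d of Dex kept its call through the 3′ probe set. Array signal limits Ankrd37 and Car9, whose lowest groups lie near background.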

Other observations

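Within a group, the members tended to be high or low on the same array. Of the 29 tested members, 25 read highest of the control arrays on replicate 2, and 25 read highest of the TNF 2 h arrays on replicate 2. At 24 h of Dex 22 members read lowest on replicate 3, and at 2 h of Dex 21 read lowest on replicate 3. At 2 h of TNF 23 read lowest on replicate 1, and at 6 d of TNF 25 read lowest on replicate 2. Egln3 spanned 10.97 to 11.99 across the control arrays and 8.43 to 10.44 across the 24 h Dex arrays. The mean over all genes tested was also lowest on replicate 2 at 6 d of TNF (7.64, against 8.35 on both mates). It was highest on replicate 2 at 2 h of TNF (8.41, against 8.31 on both mates). On the other arrays named it was not at the extreme that the members had. The same counts over all genes are not given here. Members of 1 array share its RNA, so these counts are a description of arrays.

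Other probe sets of the members were read as well. Above the level threshold there were 29 further probe sets, for 17 of the tested members. In 1 case a further probe set moved in the opposite direction with both changes at least 0.3, Hif1a at 6 d of TNF without replicate 2, at 0.30 through the probe set used and -0.43 through the other. Averaged over its probe sets, Ndrg1 was called higher at 24 h of TNF (0.47, limma adjusted p = 0.00071), as at 6 d of TNF (0.33, limma adjusted p = 0.0181), whereas its single probe set was called at neither time.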
